A study of Mus musculus with 12 samples.

Results

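Rgs4 and 6 related genes for regulators of G protein signalling (Rgs2, Rgs3, Rgs5, Rgs10, Rgs16 and Rgs19) were followed in ET cells, a mouse line that its labels describe as fetal cortical thymic epithelium. Every probe set whose platform annotation names 1 of these 7 genes was taken, which gave 19 probe sets of 22626, controls aside. The array carried 12393 genes with a probe set of their own. The probe sets of a gene are called A, B and so on in the order of their identifiers, which the plots give. The treated cultures received 5 nM TCDD for 2, 4 or 6 h, and the others received the solvent 1,4-dioxane at 0.05% by volume for the same times. TCDD is a dioxin that binds and switches on AhR, the aryl hydrocarbon receptor that acts as a transcription factor, and the series was set up to record the response to it. With 2 Affymetrix arrays of total RNA per treatment at each time, there were 6 groups and 12 arrays. The design text speaks of biological duplicates without saying which step was repeated, so errors and p-values cover no more than array-to-array spread, which may be technical. One line was used throughout, with no second line or AhR-deficient control among the 12 arrays. Rgs4 was chosen by its average TCDD minus solvent log2 difference on these same arrays, the lowest of all, and the other genes for their kinship to it. TCDD minus solvent values of the 7 genes are therefore given as a description with no p-value.

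Many cell-surface receptors switch on G proteins, whose alpha subunit then binds GTP and parts from the beta and gamma subunits. RGS proteins speed the hydrolysis of that GTP and so shorten the signal. Rgs2, Rgs3, Rgs4, Rgs5 and Rgs16 belong to the R4 subfamily, mostly small proteins built around the RGS domain; Rgs2 prefers Gq, while the others act on Gi and Gq. Rgs10 belongs to the R12 and Rgs19 to the RZ subfamily, and both act on alpha subunits of the Gi class. The proteins of Rgs4, Rgs5 and Rgs16 carry cysteine at their second position and are known to be short-lived through the N-degron pathway, so their RNA level is only 1 part of what sets the amount of protein.

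The promoters of Rgs4 and of its neighbour Rgs5 are shown because both genes lie side by side on chromosome 1, with 0 annotated genes between them. Only Rgs4 had a probe set that stood apart with TCDD. The Rgs5 probe sets lay in the range of the background genes described below, so whether Rgs5 changed cannot be stated. Rgs2 and Rgs16 are also on chromosome 1, while Rgs19 is on chromosome 2, Rgs3 on chromosome 4 and Rgs10 on chromosome 7. Both sequences come from RefSeq on GRCm38.p6 and run 5′ to 3′ from 250 bases before to 50 bases after the gene's start. Capitals mark GCGTG, the core that AhR binds with its partner Arnt, looked for on both strands. The Rgs4 window is chr1:169747593-169747892 on the minus strand, and the Rgs5 window is chr1:169655251-169655550 on the plus strand.
Rgs4: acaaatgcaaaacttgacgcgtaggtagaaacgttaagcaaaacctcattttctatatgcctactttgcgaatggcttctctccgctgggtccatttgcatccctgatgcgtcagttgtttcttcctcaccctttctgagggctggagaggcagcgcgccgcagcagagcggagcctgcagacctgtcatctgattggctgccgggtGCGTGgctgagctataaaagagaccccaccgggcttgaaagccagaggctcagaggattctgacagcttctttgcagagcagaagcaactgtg
Rgs5: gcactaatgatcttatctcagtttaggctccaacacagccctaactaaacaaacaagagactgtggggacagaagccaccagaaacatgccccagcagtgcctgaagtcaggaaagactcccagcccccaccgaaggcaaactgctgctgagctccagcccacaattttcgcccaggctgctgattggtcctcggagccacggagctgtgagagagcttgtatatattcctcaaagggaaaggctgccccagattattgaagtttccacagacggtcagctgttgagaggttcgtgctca
GCGTG occurred 1 time in the Rgs4 window, beginning 43 bases before the start, and 0 times in the Rgs5 window. Of the 10 windows of the 7 genes, some of which overlap, 5 held GCGTG, against 32.4% of all 32851 promoter windows of this length. These 5 belong to Rgs2, Rgs4, Rgs16 and Rgs19. The longer form TNGCGTG, which contains GCGTG, was present in 5.07% of all windows and, among the 7 genes, in a window of Rgs19 alone. These matches describe the letters in the windows and do not show binding.

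The deposited values were log2 levels made with RMA, which corrects for background and equalises the arrays. The usual AhR targets answered, with average log2 differences of 5.83 ± 0.26 (SE) for Cyp1a1, 3.25 ± 0.32 for Tiparp and 1.22 ± 0.11 for Nqo1 (limma adjusted p = 1.4e-05, 0.00313 and 0.00227, n = 6 against 6). Of cortical thymic epithelial markers on the array, 6 of 11 lay above the filter on low values, against 12 of 12 fibroblast and mesenchymal markers. Those above were Ctsl (mean log2 level 11.36), Ccl25 (5.90), Krt8, Tbata, Dll4 and Foxn1 (4.36), and those below were Krt18, Epcam, Prss16, Ly75 and Cd83. Krt8 (5.04), Tbata, Dll4 and Foxn1 lay below the 90th percentile of the background genes described below (5.55). The lowest fibroblast marker, Lum (4.31), also lay below that percentile. Of medullary thymic epithelial markers, 4 of 7 on the array lay above the filter. Lying above the filter is not a detection call. The mean level of the fibroblast list was 8.86 to 9.86 on TCDD arrays and 9.50 to 9.83 on solvent arrays, and that of the cortical list 4.84 to 5.07 on TCDD arrays and 4.85 to 5.01 on solvent arrays. The second 4 h TCDD array names the solvent in its treatment field, while for the pair of 6 h solvent arrays the description and protocol read 4 h. Groups follow the titles. By clustering, 7 arrays (3 TCDD and 4 solvent) formed 1 group, here the larger set. The other 5 (3 TCDD and 2 solvent) were handled as a smaller set but made up 3 clusters: the second 2 h array of each treatment, the second 6 h array of each treatment, and the first 4 h TCDD array alone. Values within the smaller set at 2 and 6 h each compare arrays of 1 cluster, and at 4 h there is none.

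Rgs4 RNA was lower with TCDD at every time by its probe set A. After 2 h the log2 level was 3.7 and 3.7 with TCDD, against 5.2 and 5.1 in solvent. After 4 h it was 4.2 and 4.2 with TCDD, against 5.4 and 5.5 in solvent. After 6 h it was 4.5 and 4.9 with TCDD, against 5.4 and 5.8 in solvent. The highest TCDD array (4.9) lay below the lowest solvent array (5.1), so the treatments did not overlap on any array. Separation of this kind, with all 6 TCDD arrays below all 6 solvent arrays, was found for 0.0442% of the tested probe sets. These were 7 probe sets, the others being those of Id3, Clip2, Cdc42ep1, Phlpp1 and Csf1 (by 2 probe sets). Rgs4 was chosen by these same values, so its place among them is a description and nothing is read from the share.

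**Figure D1:**
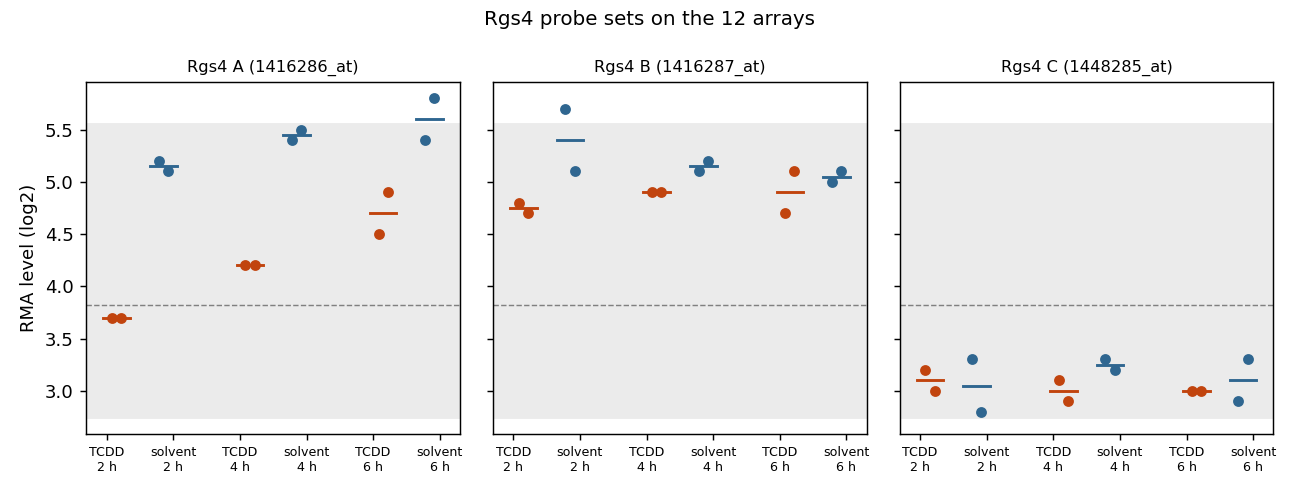
Log2 RMA level of the 3 Rgs4 probe sets on each of the 12 arrays, by treatment and time; points are arrays, short lines group means of 2 arrays. The grey band runs from the 10th to the 90th percentile of 61 probe sets of genes that such cells are not known to use (log2 2.74 to 5.55), and the dashed line is their median (3.83). Only probe set A parts the treatments on all arrays, and nearly all values lie within the band.

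The TCDD minus solvent difference of probe set A was -1.45 ± 0.19 (log2, SE) at 2 h, -1.25 ± 0.19 at 4 h and -0.90 ± 0.19 at 6 h (n = 2 against 2 each). Averaged over the times it was -1.20 ± 0.11 (n = 6 against 6), the lowest among 15844 tested probe sets, which is how Rgs4 was chosen. No fold is given, since the levels lay within the range of the background genes described below. Taken within the larger array set, it came to -1.50 at 2 h, -1.25 at 4 h and -0.90 at 6 h. In the smaller set it came to -1.40 at 2 h and -0.90 at 6 h. The average of these values was -1.22 in the larger and -1.15 in the smaller set. Without the 4 h TCDD array whose treatment field names the solvent, the average stayed at -1.20 ± 0.12. Of the tested marker genes, 6 of 6 of pericytes and vascular muscle and 10 of 12 of fibroblasts had an average difference below 0. The share over all tested probe sets was 49.8%. The list medians were -0.08 and -0.12, with 0 past the test. By time, the medians changed sign. At 2, 4 and 6 h they were 0.05, -0.075 and -0.125 for pericytes and vascular muscle. For fibroblasts they were -0.125, -0.30 and 0.05. What part these marker genes have in the Rgs4 difference was not tested. In bulk RNA, fewer cells that make a transcript and less of it per cell cannot be told apart.

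The 6 group means of probe set A can be put in order from high to low. Solvent at 6 h came first with 5.60 ± 0.28 (SD, n = 2), followed by solvent at 4 h with 5.45 ± 0.07 and solvent at 2 h with 5.15 ± 0.07. TCDD at 6 h stood at 4.70 ± 0.28, TCDD at 4 h at 4.20 ± 0.00 and TCDD at 2 h at 3.70 ± 0.00. Solvent at 6 h and at 4 h differed by less than the SD at 6 h, while the other neighbours in this order had no array values in common. An SD of 0.00 reflects values stored with 1 decimal and does not mean that the arrays were free of error.

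The other 2 Rgs4 probe sets differed less. By probe set B the level was 4.8 and 4.7 with TCDD at 2 h, against 5.7 and 5.1 in solvent. At 4 h it was 4.9 and 4.9 with TCDD, against 5.1 and 5.2 in solvent, and at 6 h it was 4.7 and 5.1 with TCDD, against 5.0 and 5.1 in solvent. The treatments overlapped between 5.0 and 5.1 at 6 h and lay apart at 2 and 4 h. Its difference was -0.65 ± 0.22 (log2, SE) at 2 h, -0.25 ± 0.22 at 4 h and -0.15 ± 0.22 at 6 h, and -0.35 ± 0.12 on average. At 2 h it was -0.35 without the first solvent array and -0.95 without the second. At 6 h it was 0.05 without the first TCDD array and -0.35 without the second. The size at 2 h and the sign at 6 h therefore depended on 1 array. Probe set C stayed between 2.9 and 3.2 with TCDD and between 2.8 and 3.3 in solvent, with a plain difference of -0.10. It lay below the filter on low values, a mean of 3.98 in log2, and was not tested.

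Rgs4 was measured close to background. No detection calls were used here, so its levels were set beside 61 probe sets of 30 genes, such as those of retina, pancreas, liver, sperm and brain, that a stromal or epithelial line is not known to use. Their mean levels ran from 2.52 to 6.38, with a median of 3.83 and a 90th percentile of 5.55; between probe sets, levels can be set side by side no more than roughly. The mean of probe set A (4.80) lay above 46 of the 61, that of probe set B (5.02) above 48 and that of probe set C (3.08) above 14. With TCDD at 2 h, probe set A stood at 3.70, below the median of these genes. How nearness to background affects the size of the difference was not tested. Of all 22626 probe sets, probe set A was at the 45.2nd percentile of mean level and probe set B at the 49.0th.

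Across the 7 genes, 12 of 19 probe sets, of 6 genes, passed the filter on low values, and the 2 probe sets of Rgs2 did not. A total of 5 probe sets lay above the 90th percentile of the background genes: those of Rgs10 (mean log2 level 6.95) and Rgs19 (7.77 and 6.88) and 2 of Rgs3 (6.96 and 5.80). On the average of the times, 1 of the 12 tested probe sets passed (limma, Benjamini-Hochberg adjusted p under 0.05), the Rgs4 probe set by which the genes were chosen, against 0.0947% of all tested probe sets. The count was 0 at 2 h (0.0189% of all), 0 at 4 h (0.0126%) and 0 at 6 h (0.00631%). The contrast led to the choice of Rgs4, so nothing is read from these counts. The median average difference of the 12 was -0.11, beside 0 for all tested probe sets.

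**Figure D2:**
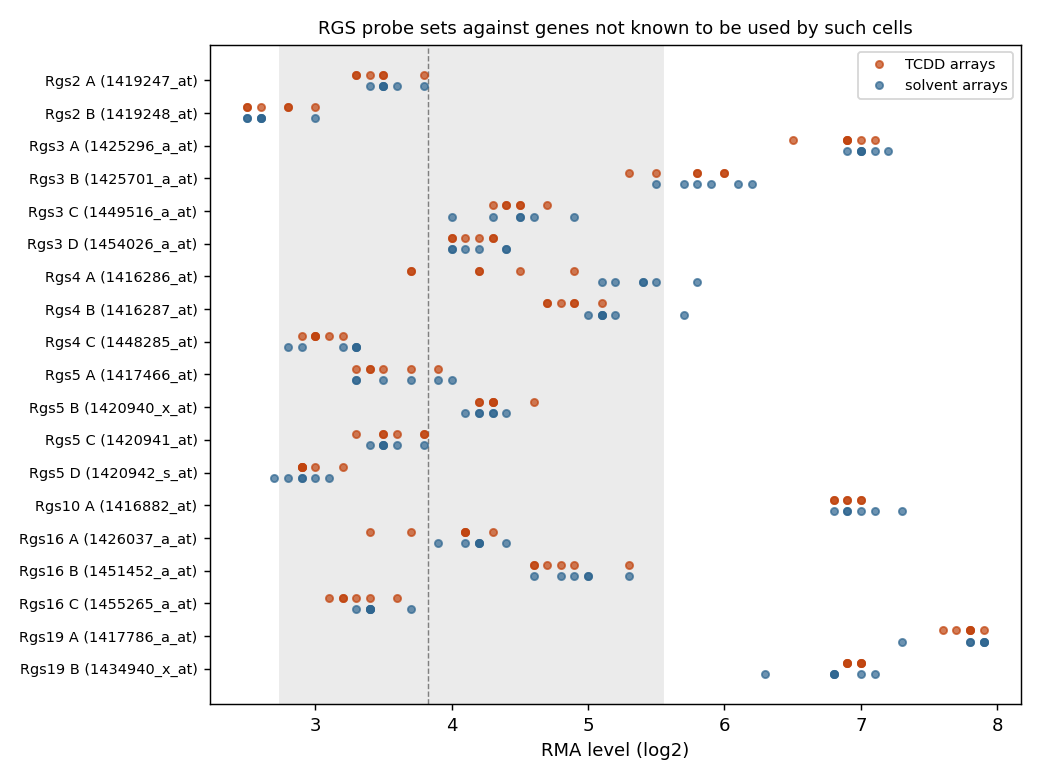
Log2 RMA level of the 19 RGS probe sets, with the 6 TCDD arrays above the 6 solvent arrays in each line; the grey band and dashed line show the 10th to 90th percentile (2.74 to 5.55) and median (3.83) of the background genes. The probe sets of Rgs10 and Rgs19 and probe set A of Rgs3 lie to the right of the band on all arrays, Rgs3 probe set B on most, and the treatments part only for Rgs4 probe set A.

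Among the other R4 genes, Rgs3, whose longer form also carries a PDZ domain, had the highest levels. Its probe set A ranged from 6.5 to 7.1 with TCDD, with a mean of 6.88, and from 6.9 to 7.2 in solvent, with a mean of 7.03. The average difference was -0.15 ± 0.11 (log2, SE). The lowest value, 6.5, was that of the second 6 h TCDD array. At 2 h the treatments lay apart, with 6.9 and 6.9 against 7.0 and 7.1 in solvent. At 4 and 6 h they had array values in common. For probe set B the difference was -0.13 ± 0.14, for probe set C 0.00 ± 0.14 and for probe set D -0.03 ± 0.11. These 4 probe sets carry the suffix a, for sets that match several transcripts of 1 gene, and the arrays do not tell which form of Rgs3 each of the 4 followed.

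Rgs16, an R4 gene induced by many stimuli, had slightly lower means with TCDD, within overlapping ranges. By probe set A it was 3.4 and 4.1 with TCDD at 2 h, against 3.9 and 4.1 in solvent. At 4 h it was 4.3 and 4.1 with TCDD, against 4.2 and 4.2 in solvent, and at 6 h it was 3.7 and 4.1 with TCDD, against 4.2 and 4.4 in solvent. TCDD arrays lay below both solvent arrays at 6 h but not at 4 h. The average difference was -0.22 ± 0.14 (log2, SE), and that of probe set B was -0.12 ± 0.15. Probe set C had a mean of 3.37 and lay below the filter, with a plain difference of -0.13. Within the array sets, the 15 TCDD minus solvent values of the 3 Rgs16 probe sets ran from -0.50 to 0.00. Nearly all compare 1 array with 1, and the 3 probe sets share arrays and gene. The first 4 h TCDD array enters none of them, since its set holds no 4 h solvent array. That array stood at 4.3, 5.3 and 3.6 by probe sets A, B and C. The 4 h solvent arrays stood at 4.2 and 4.2, 5.0 and 4.6, and 3.4 and 3.4. With the array set as a block, the average difference was -0.27 ± 0.10 for probe set A and -0.17 ± 0.11 for probe set B, and with 1 array left out that of probe set A ran from -0.33 to -0.10.

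Rgs5, best known from pericytes of small vessels, and Rgs2 gave levels in the range of the background genes. Of the 4 Rgs5 probe sets only probe set B passed the filter, at 4.2 to 4.6 with TCDD, against 4.1 to 4.4 in solvent, and its average difference was 0.07 ± 0.10 (log2, SE). Its suffix x marks a set that may also bind other transcripts. The remaining 3 had mean levels of 2.93 to 3.58 and plain differences of -0.08 to 0.07. Pericyte and vascular muscle genes were mixed, with a list mean of 5.78 to 6.08 on TCDD arrays and 5.84 to 6.14 on solvent arrays: Acta2 at 12.63 and Tagln at 10.95 but Abcc9 at 2.85 and Higd1b at 3.24. Rgs2 stood at 3.3 to 3.8 with TCDD, against 3.4 to 3.8 in solvent, by probe set A, and at 2.5 to 3.0 with both treatments by probe set B. At such levels neither presence nor absence of these 2 transcripts can be stated.

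Rgs10 and Rgs19, outside the R4 subfamily, were measured well above the background genes. Rgs10 was 7.0 and 6.9 with TCDD at 2 h, against 7.0 and 7.3 in solvent. At 4 h it was 6.9 and 7.0 with TCDD, against 6.9 and 7.1 in solvent, and at 6 h it was 6.8 and 6.8 with TCDD, against 6.9 and 6.8 in solvent. The treatments overlapped, and the average difference was -0.10 ± 0.09 (log2, SE). Rgs19, first described as a protein that binds the alpha subunit Gi3, was at 7.6 to 7.9 with TCDD and 7.3 to 7.9 in solvent by probe set A, a difference of 0.00 ± 0.11. By probe set B it was at 6.9 to 7.0 with TCDD and 6.3 to 7.1 in solvent, a difference of 0.15 ± 0.13. The lowest values, 7.3 and 6.3, both came from the second 2 h solvent array, and the 2 probe sets correlated with r = 0.72 over the 12 arrays. Across the 10 tested probe sets other than Rgs4, average differences ran from -0.22 to 0.15, with SE of 0.09 to 0.15.

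**Figure D3:**
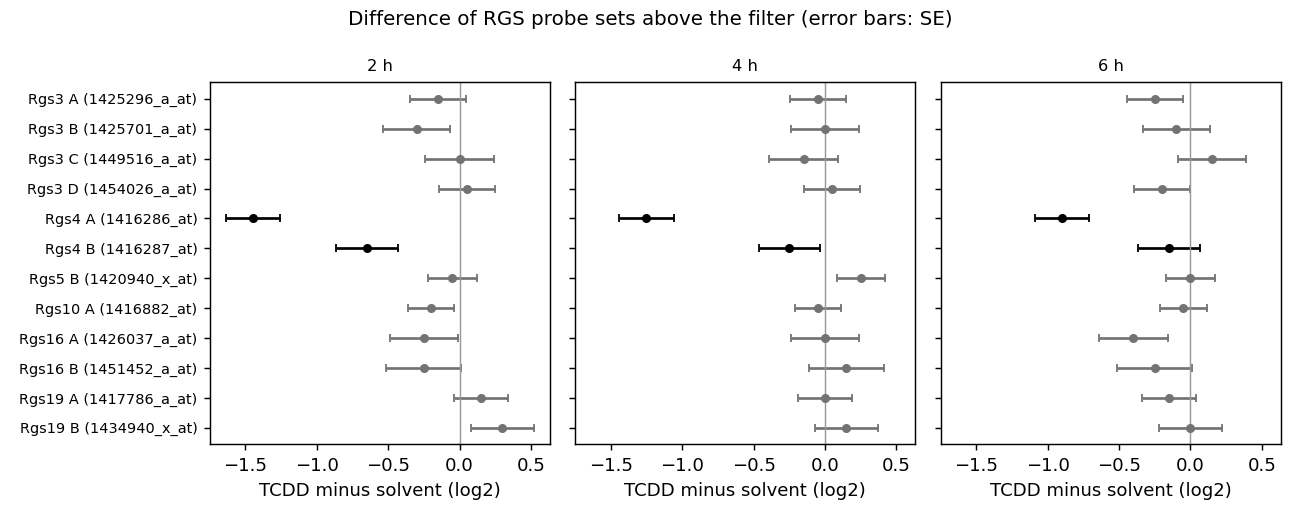
TCDD minus solvent difference in log2 at 2, 4 and 6 h for the 12 RGS probe sets above the filter; points are estimates from 2 against 2 arrays and bars their standard errors. Rgs4 probe set A stands at -1.45, -1.25 and -0.90, and all probe sets other than Rgs4 lie between -0.40 and 0.30.

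Changes with time are not the contrast by which Rgs4 was chosen, and they were tested over all probe sets. With TCDD, probe set A was 1.00 ± 0.19 (log2, SE) higher at 6 h than at 2 h, and in solvent it was 0.45 ± 0.19 higher. Neither passed (limma adjusted p = 0.597 and 0.97, n = 2 against 2). The TCDD difference was 0.55 ± 0.27 less negative at 6 h than at 2 h, which did not pass either (limma adjusted p = 1), so a fading of the difference is not shown. With 1 array left out, the solvent value ran from 0.25 (without the second 6 h solvent array) to 0.65 (without the first). The change of the TCDD difference ran from 0.35 (without the first 6 h solvent or the second 6 h TCDD array) to 0.75 (without the other array of either pair). By probe set B the same 3 values were 0.15 ± 0.22, -0.35 ± 0.22 and 0.50 ± 0.30 (limma adjusted p = 0.838, 0.97 and 1). The solvent value of probe set B was -0.05 without the first 2 h solvent array and -0.65 without the second. Its TCDD value ran from -0.05 (without the second 6 h TCDD array) to 0.35 (without the first), and the change of its TCDD difference from 0.20 (without the first 2 h solvent array) to 0.80 (without the second).

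None of the 12 RGS probe sets passed a limma test over time. The count was 0 with TCDD (0% of all 15844; 1283 had an unadjusted p under 0.05), 0 in solvent (0%; 447) and 0 for the change of the TCDD difference (0%; 230). Among the 12, 1 had an unadjusted p under 0.05 with TCDD and 1 in solvent, both times Rgs4 probe set A, and 0 for the change of the difference. For the 10 other than Rgs4, the 6 h minus 2 h difference lay between -0.25 and 0.15 with TCDD and between -0.30 and 0.35 in solvent. If the 6 h solvent arrays were in truth taken at 4 h, as their descriptions say, the solvent comparison spans less time. With 4 h and 6 h solvent arrays as 1 group, the average difference of probe set A was -1.20 ± 0.11. Equal group sizes fix this average in advance, so it does not test the time labels.

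The level of probe set A was compared with that of every other tested probe set with 1 gene symbol over the 12 arrays, as a description. The highest correlations were those of Bcl2l1, an inhibitor of apoptosis (r = 0.84), Zfp503, a zinc finger gene (0.83), Csf1, the macrophage growth factor (0.81), Slu7, a splicing factor (0.80), and Nkx2-3, a homeobox gene (0.79). Slu7 (mean log2 level 4.29) and Nkx2-3 (4.01) lay in the range of the background genes, and the Nkx2-3 probe set carries the suffix x. Csf1 ran from 6.9 to 7.4 with TCDD and from 7.6 to 8.1 in solvent. The lowest were those of 2 probe sets of Btg1, a brake on proliferation (-0.92 and -0.90), Abhd17c, a depalmitoylating enzyme (-0.91), Fez2 (-0.90) and Cpox, an enzyme of haem synthesis (-0.87). Fez2 ran from 8.6 to 8.9 with TCDD and from 8.1 to 8.3 in solvent, so it parted the treatments on all arrays in the direction opposite to Rgs4. All points share the same 12 arrays and the treatment by which Rgs4 was chosen. Its own second probe set had r = 0.65 and probe set C 0.29, while Rgs16 probe set A had 0.54 and Rgs5 probe set B -0.29.

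**Figure D4:**
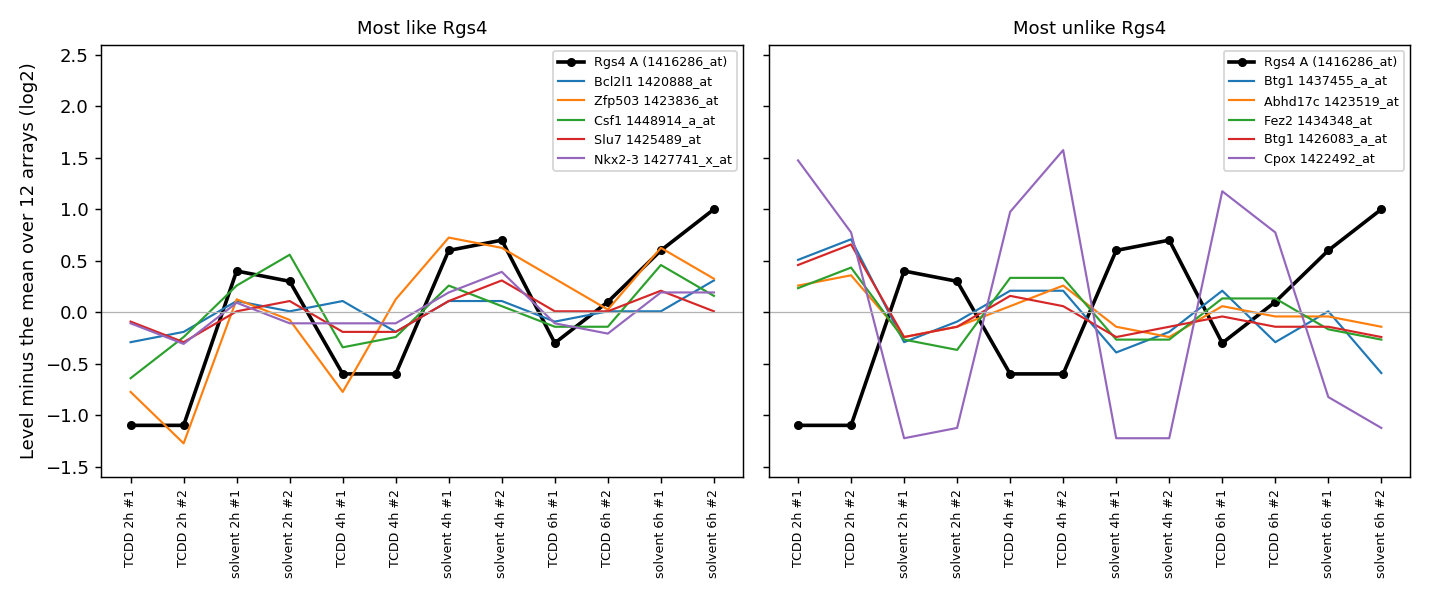
Level minus the mean over 12 arrays (log2) of Rgs4 probe set A in black and of the 5 probe sets with the highest (left) or lowest (right) correlation with it, in coloured lines, array by array (# marks the replicate). Rgs4 spans from 3.7 to 5.8 in level, Csf1 from 6.9 to 8.1 and Fez2 from 8.1 to 8.9.

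Genes around the RGS proteins were read from 7 lists of 110 symbols, some of them older names of another symbol in the list. Of these, 80 were on the array and 57 were tested, each by its probe set with the highest mean. The number past the test was 0 of 57 in all 7 comparisons by limma, read against the shares of all probe sets given above. Among receptors that couple to Gi or Gq, 11 of 24 on the array were tested, with a median average difference of -0.02. Lpar1, a receptor for lysophosphatidic acid, stood at 5.93 with TCDD and 6.53 in solvent (-0.60 ± 0.16 log2, SE; limma adjusted p = 0.731, n = 6 against 6). S1pr1, a receptor for sphingosine 1-phosphate, stood at 4.97 with TCDD and 4.48 in solvent (0.48 ± 0.17; adjusted p = 1).

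The alpha subunits had a median average difference of -0.07 in log2 (11 of 12 on the array tested). Their list is wider than the Gi and Gq classes on which these RGS proteins act, and holds Gnas as well. Gnai1 stood at -0.18 ± 0.15 (SE) and Gnaq at 0.18 ± 0.10, both without passing (limma adjusted p = 1). Of the 11, 8 had an average difference below 0, 1 was at 0 (Gnas) and 2 were above 0 (Gnaq and Gna15). The share below 0 over all tested probe sets was 49.8%. Of the beta and gamma subunits, 12 of 12 were tested, with a median of -0.05, and Gnb4 stood at 0.52 ± 0.12 (limma adjusted p = 0.369) with 6.72 on TCDD arrays and 6.20 on solvent arrays. Gnb5, the partner of RGS proteins such as Rgs9 and Rgs11, stood at -0.17 ± 0.24. The effectors adenylyl cyclase and phospholipase C beta had a median of -0.03 (10 of 11 tested), with Plcb3, a target of Gq, at -0.20 ± 0.15. Grk5, a kinase that silences receptors, stood at -0.40 ± 0.21, and Grk6 at -0.07 ± 0.12, in a list of 4 tested of 5 with a median of -0.03. None of these genes passed.

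Other RGS genes were mostly low: 3 of 10 on the array passed the filter, Rgs9, Rgs11 and Rgs14, with average differences of 0.07 ± 0.11, -0.08 ± 0.11 and 0.10 ± 0.11 (log2, SE). The other 7, among them Rgs1 and Rgs18 of blood cells, had mean levels of 2.59 to 3.49. In the N-degron pathway, which destroys RGS proteins that begin with cysteine after methionine is removed, 6 of 6 genes were tested, with a median of -0.01. The ubiquitin ligase gene Ubr2 stood at 0.18 ± 0.12, and Metap2, which removes the first methionine, at 0.13 ± 0.18. Over the 57 genes tested, the average difference ran from -0.60 for Lpar1 to 0.52 for Gnb4.

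**Figure D5:**
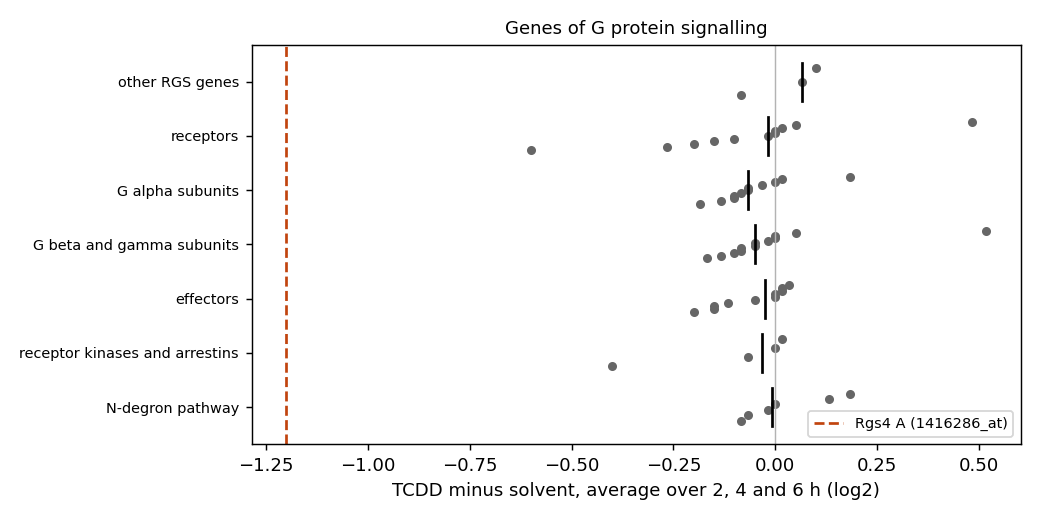
Average TCDD minus solvent difference over 2, 4 and 6 h (log2) of the 57 tested genes of G protein signalling by list; points are genes, spread vertically for visibility, and black bars list medians. The dashed line marks Rgs4 probe set A at -1.20, and the genes lie between -0.60 and 0.52.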

How the data were processed

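The authors deposited log2 levels for each probe set; the submitters' processing notes name RMA, and its version and any filters are not given in the sources used here. Values have 1 decimal and run from 2.2 to 14.1. The median was 5.1 on the first array, and those of the other arrays were not taken. RMA equalises the arrays, so no change common to all genes can be seen. 0 columns were left out, and 64 control probe sets of 22690 were not used. Of the remaining probe sets, 20380 carry 1 symbol, 691 several and 1555 none; 20351 were matched to RefSeq (GRCm38.p6) by gene identifier, changing 0 symbols.

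The filter on low values, a mean reaching the 30th percentile (log2 3.98), left 15844 probe sets. limma 3.58.1 (R 4.3.3) fitted 6 group means, with 6 residual degrees of freedom, two-sided tests, Benjamini-Hochberg adjustment and a threshold of 0.05. On simulated data it recovered 91% of log2 changes of 1 for the average and 40% to 49% at single times. For 6 h against 2 h it recovered 36% in solvent and 38% with TCDD, and 6% for the change of the TCDD difference. Of log2 changes of 2 it recovered 75% to 99%. Tests other than that of the average can thus miss changes of 1. The number of arrays limits the precision. Array sets came from these values (complete linkage, 4 clusters, the largest against the others). The first minus second array differences of TCDD and solvent correlated with r = 0.37, 0.16 and 0.71 at 2, 4 and 6 h. The titles' replicate numbers were therefore taken to pair arrays within a time, but only in 1 alternative, the replicate block within each time. Unless another fit is named, SEs and p-values come from the fit without pairing. For the average of Rgs4 probe set A the SE was 0.08 with that block, against 0.11 without. Members and lists were chosen with earlier results of these data known. Named were the members, the 5 probe sets most and least correlated with Rgs4 and up to 2 genes per list with the largest average difference; Rgs9, the pericyte genes and the genes that separated as Rgs4 did were named after their values were seen. Alternatives were blocks, filters, single arrays left out and pooled solvent arrays.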

Additional observations from a re-analysis of the deposited data

How the results depend on the processing

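The average TCDD minus solvent difference of Rgs4 probe set A was -1.22 under the array set block and -1.20 with either replicate block. Each replicate number holds 1 TCDD and 1 solvent array at each time, so the replicate blocks could not move this value. Within the larger array set the average over 2, 4 and 6 h was -1.22, and within the smaller set the average over 2 and 6 h alone was -1.15. With 1 array left out, the average over all times was -1.27 to -1.13. Rgs4 was chosen by these same values. All its TCDD arrays lay below all solvent arrays, so leaving arrays out or taking 1 set alone could not turn the sign. The direction and the calls of RGS probe sets below are therefore a description. With the filter at the 50th percentile (log2 5.1) the probe set was not tested, and the count of RGS probe sets past the test on the average was 0, against 1. At 2 h the count was 1 with the array set block, 1 with the 4 h and 6 h solvent arrays as 1 group, and 0 to 1 with 1 array left out (1 without either 4 h TCDD array), against 0. At 4 h it was 1 with the pooled solvent arrays, against 0. Where the count at a time was 1, the probe set was Rgs4 probe set A. The replicate block over all times and the block within each time changed no call among the RGS probe sets. Counts of all probe sets moved more. On the average they were 46 with the array set block and 10 to 24 with 1 array left out, against 15. At 2 h they were 10 with the array set block, 6 with pooled solvent arrays, 1 with the replicate block within each time and 0 to 9 with 1 array left out, against 3. At 4 h they were 7, 8, 1 and 1 to 59, against 2, with 1 also for the replicate block over all times and 59 without the second TCDD array. At 6 h they were 8 with the array set block, 11 with pooled solvent arrays and 0 to 7 with 1 array left out, against 1. For 6 h against 2 h with TCDD the array set block gave 3, against 0. The cause of these moves was not tested. Of the 19 RGS probe sets, 12 lay above the median and 5 above the 90th percentile of the background genes, and signal near background limits the sizes given for Rgs4, Rgs5, Rgs16 and Rgs2.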
